A study of Rattus norvegicus with 18 samples.

Results

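AMPA and kainate receptor subunits are described here in the hippocampus of rats that had gone through pilocarpine-induced status epilepticus (SE), a prolonged seizure from which spontaneous seizures later develop. They were the 9 genes Gria1 to Gria4 and Grik1 to Grik5, taken by the gene symbol of each array probe, out of 12344 genes named on the array. 14 probes carried these symbols, namely 4 for Gria4, 2 each for Grik1 and Grik4 and 1 for each of the remaining 6 genes. Total RNA of the whole hippocampus was measured on 18 CodeLink arrays of the rat genome, each from a different rat. D3 comprised 5 rats at 3 days after SE, D7 comprised 5 rats at 7 days after SE, and Chronic comprised 5 rats taken immediately after their first spontaneous seizure. All 18 were adult male Wistar rats. These 15 had received scopolamine methylnitrate, then pilocarpine, and diazepam to end the SE. The 3 Control rats had saline only, without any of these 3 drugs, and 1 of them belonged to each time (replicate 26 to D3, 36 to D7 and 47 to Chronic), so that the 3 are used together. In whole tissue, fewer cells of a type and less RNA per cell cannot be told apart.

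Both families are ligand-gated cation channels opened by glutamate, each channel being assembled from several subunits. Gria1 to Gria4 encode the AMPA receptor subunits, which carry most fast excitatory transmission, and the subunit from Gria2, after editing of its RNA, keeps calcium out of the channel. Grik1 to Grik3 encode kainate receptor subunits that can form channels by themselves, whereas the high-affinity subunits from Grik4 and Grik5 need a partner from that first set. In the hippocampus, kainate receptors are best known at the mossy fibre synapses on CA3 pyramidal cells and in interneurons.

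RefSeq (rat assembly GRCr8) gave a promoter sequence, from 250 bases before to 50 after an annotated start, for 6 of the 9 genes, namely Gria4 and Grik1 to Grik5. The promoters of Gria4, Grik1 and Grik5 are printed because the results below turn on these 3 genes, each read 5′ to 3′ on the minus strand of its chromosome. They lie at chr8:10319832-10320131 (Gria4), chr11:41056454-41056753 (Grik1) and chr1:89794860-89795159 (Grik5), and capitals mark each match to a searched motif on either strand. In each, the start used lies inside the annotated gene, whose 5′ end is at 10320021 (Gria4), 41056966 (Grik1) and 89795769 (Grik5).
Gria4: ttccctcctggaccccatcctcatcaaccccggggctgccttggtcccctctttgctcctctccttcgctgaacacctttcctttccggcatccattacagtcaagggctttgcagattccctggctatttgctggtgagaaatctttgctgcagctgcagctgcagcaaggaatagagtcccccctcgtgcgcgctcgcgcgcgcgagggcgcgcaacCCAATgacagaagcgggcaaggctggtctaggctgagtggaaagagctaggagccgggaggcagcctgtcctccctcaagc
Grik1: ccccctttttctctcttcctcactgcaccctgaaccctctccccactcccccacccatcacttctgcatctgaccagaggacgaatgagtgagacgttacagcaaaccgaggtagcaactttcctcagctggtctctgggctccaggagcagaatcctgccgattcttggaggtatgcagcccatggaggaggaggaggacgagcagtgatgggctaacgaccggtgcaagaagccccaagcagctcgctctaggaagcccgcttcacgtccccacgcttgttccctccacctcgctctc
Grik5: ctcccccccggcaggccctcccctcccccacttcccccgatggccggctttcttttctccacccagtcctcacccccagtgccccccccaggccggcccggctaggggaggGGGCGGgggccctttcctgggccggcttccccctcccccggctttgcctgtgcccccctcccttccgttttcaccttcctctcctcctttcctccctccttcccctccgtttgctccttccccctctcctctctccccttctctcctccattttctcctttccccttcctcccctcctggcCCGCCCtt

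4 motifs were searched on both strands, and the matches in the printed promoters do not overlap. The CCAAT box (CCAAT) matched at 1 place in the Gria4 promoter, and 37.5% of all 33469 rat promoters of this length hold it. The GC box (GGGCGG) matched at 2 places in the Grik5 promoter, and 33.1% of all promoters hold it. Neither the TATA box (TATAAA, in 14.2% of all promoters) nor the half-site of the cyclic AMP response element (TGACG, in 21.2%) matched in these 3 promoters, and Grik1 had no match to any of the 4. GC content was 60.3% for Gria4, 58.7% for Grik1 and 69.0% for Grik5, against a median of 51.7% over all promoters. These matches are a description of letters, and binding was not measured.

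7 of the 9 genes could be measured. Values are normalized intensities on a linear scale, in which the typical spot of an array is set to about 1, so values of different probes are not compared in size. For Gria1 and Grik3 the scanner software marked the spot as low signal on all 18 arrays, with normalized intensities between -0.0403 and 0.206 for Gria1 and between -0.0573 and 0.271 for Grik3. Neither was well above background in any group, and no fold change is given for them. The remaining 7 genes had a good spot on all 18 arrays for their brightest probe, except that the Grik5 spot of Chronic replicate 43 was marked as contaminated and left out. The arrays as a whole had between 66.01% and 75.96% good spots.

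Gria4 and Grik5 were the AMPA and the kainate subunit with the largest decrease at D3, and no measured subunit was higher than in Control at an adjusted p under 0.05. At D3, 4 of the 9 subunits were lower (Gria2, Gria4, Grik1 and Grik5), against 16.5% of all 12331 genes tested. 3 were lower at D7 (Gria4, Grik1 and Grik5), against 15.5% of all genes, and 3 in Chronic (Gria2, Gria4 and Grik1), against 12.7%. The median log2 fold change of the 7 measured subunits was -0.55, -0.49 and -0.41 at the 3 times in turn, and the median of all genes was -0.10, -0.12 and -0.12. All genes include spots near background. Among genes with a good spot on at least 9 arrays, 21.7%, 21.3% and 18.3% were lower, with medians of -0.11, -0.15 and -0.14. A decrease of at least 2-fold that also passed the test was found for the brightest probe of Gria4 alone, at D3 (0.973% of all genes) and at D7 (0.487% of all genes). No subunit had one in Chronic (0.673% of all genes). In each of the 3 comparisons 4 subunits had every pilocarpine array below every Control array, a pattern found for 26.4%, 21.7% and 20.3% of all genes. These were Gria2, Gria4 and Grik5 each time, with Grik2 at D3 and Grik1 at D7 and in Chronic.

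Scaling changed the share of all genes called lower more than it changed these counts. After quantile normalization 8.60%, 4.92% and 4.12% of all genes were lower at D3, D7 and Chronic, with 3, 3 and 2 of the 9 subunits. When arrays were scaled at their 75th percentile the median of all genes was -0.045 (D3), -0.01 (D7) and -0.01 (Chronic). Under this scaling 13.8%, 7.79% and 6.63% of all genes were lower, with 4, 3 and 2 of the 9 subunits, for these groups in turn. Against the single time-matched Control array, 1 subunit (Gria4) was lower at D3 and none at D7 or in Chronic, with 2.00%, 0.849% and 0.0412% of all genes lower, so the counts at D7 and in Chronic say nothing particular to the subunits.

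**Figure D1:**
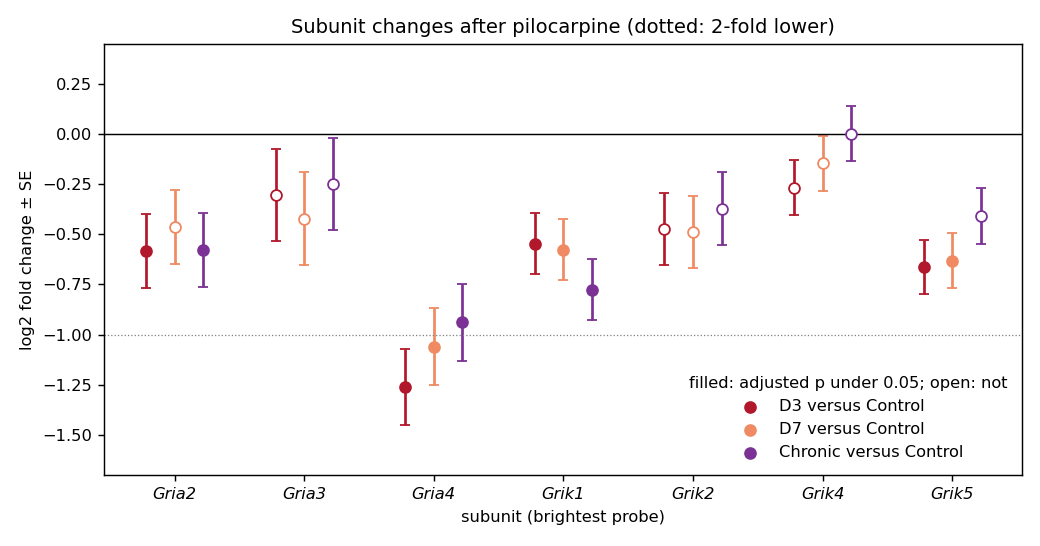
Log2 fold change ± SE of the 7 measured subunits (x axis) at D3, D7 and Chronic against Control, for the brightest probe of each gene, with filled points for an adjusted p under 0.05 and a dotted line at 2-fold lower. Gria4 lies lowest at each time (-1.26, -1.06 and -0.94) and Grik4 in Chronic lies at 0.00.

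Among the AMPA receptor subunits, Gria4, which encodes a subunit with fast gating that is prominent in interneurons, had the largest decrease. The brightest Gria4 probe read 6.87, 6.48, 6.46, 6.62 and 4.90 on the D3 arrays (replicates 11 to 15). On the D7 arrays (replicates 31 to 35) it read 7.94, 8.31, 4.09, 8.40 and 8.26, and on the Chronic arrays (replicates 41 to 45) 8.60, 8.80, 8.54, 7.10 and 6.20. The 3 Control arrays (replicates 26, 36 and 47) read 14.1, 15.4 and 15.2. No pilocarpine array reached the lowest Control array, and the lowest value of all came from D7 replicate 33. Gria4 fell by 1.26 ± 0.19 (SE) on the log2 scale at D3 (adjusted p = 0.000184), to 41.7% of Control. It fell by 1.06 ± 0.19 at D7 (adjusted p = 0.00151) and by 0.94 ± 0.19 in Chronic (adjusted p = 0.00426). Leaving out any single array kept Gria4 past the test, with adjusted p of at most 0.0019, 0.0115 and 0.0248 at the 3 times in turn. The D7 value was -0.86 and no longer 2-fold when D7 replicate 33 was left out.

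The other 3 Gria4 probes were also lower in each pilocarpine group, by less. The second brightest read from 2.38 to 2.89 on D3 arrays, from 1.93 to 2.86 on D7 arrays and from 1.90 to 2.81 on Chronic arrays, against 3.31 to 4.19 in Control. It fell by 0.50, 0.57 and 0.62 on the log2 scale at the 3 times (adjusted p = 0.0202, 0.0131 and 0.01). The third had log2 fold changes of -0.33, -0.42 and -0.49 (adjusted p = 0.17, 0.0798 and 0.0516), none past the test. The dimmest had -0.45, -0.44 and -0.47 (adjusted p = 0.0429, 0.0514 and 0.0439), so that it passed at D3 and in Chronic.

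The brightest Gria4 probe was set against each of its 3 companions on the same array, where any scale factor of the array cancels. The log2 difference between the brightest and the second brightest probe was smaller by 0.76 at D3 than in Control (1.24 ± 0.22 at D3 and 2.01 ± 0.11 in Control, SD, n = 5 and 3; exact two-sided permutation test p = 0.0179, the smallest that 5 against 3 arrays can give). The corresponding log2 shifts at D3 were -0.93 against the third probe and -0.81 against the dimmest (exact p = 0.0179 for each). 6 of these 9 comparisons over the 3 times had an adjusted p of 0.0268, and the remaining 3 had adjusted p of 0.0603, 0.0603 and 0.0893. All 9 shifts were negative, from -0.32 to -0.93. On these arrays the decrease at the brightest probe was larger than at the other probes at D3, and all 9 tests share the 3 Control arrays. This comparison was chosen after the values were seen, so its p-values are a description of these arrays only. Only the third probe is annotated with a RefSeq transcript of Gria4, and it passed the test against Control at no time. Which splice forms the probes bind is not given in the sources used here.

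**Figure D2:**
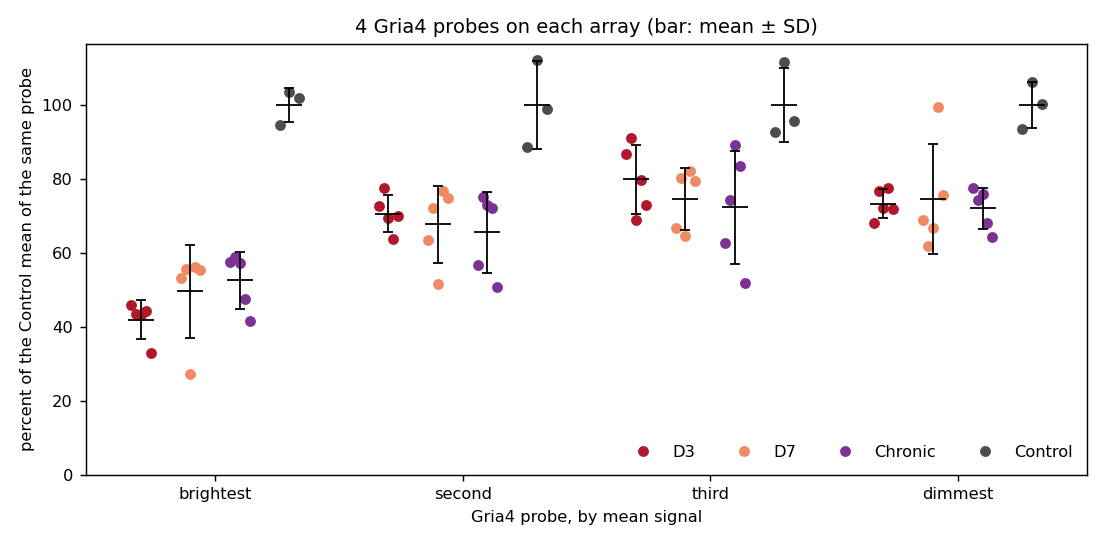
Normalized intensity of the 4 Gria4 probes on each array as a percent of the mean of the same probe in Control (y axis), with the probes ordered by mean signal (x axis), points for arrays and bars for mean ± SD. The brightest probe averages 41.96%, 49.6% and 52.6% of Control at D3, D7 and Chronic, and the other 3 average between 65.6% and 79.9%.

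Gria2, which encodes the subunit that limits calcium entry, read 39.6, 41.1, 52.9, 45.9 and 48.6 at D3 (replicates 11 to 15) and 46.97, 59.9, 40.3, 56.8 and 45.2 at D7 (replicates 31 to 35). In Chronic (replicates 41 to 45) it read 28.9, 43.1, 53.6, 63.0 and 45.7, against 67.4, 69.4 and 66.8 in Control. All 15 pilocarpine arrays lay below the 3 Control arrays, although the Chronic arrays spread more widely than those of the other groups. Gria2 fell by 0.58 ± 0.18 on the log2 scale at D3 (adjusted p = 0.0287) and by 0.58 ± 0.18 in Chronic (adjusted p = 0.0401). The D7 value of -0.46 ± 0.18 did not pass the test (adjusted p = 0.0881). After quantile normalization the D3 and Chronic values were -0.28 and -0.33 and no longer passed (adjusted p = 0.251 and 0.214), and scaling at the 75th percentile also ended the Chronic call (adjusted p = 0.0654). The D3 call was lost without D3 replicate 11 or 12 or any of the 3 Control arrays (adjusted p = 0.0591 to 0.0896 over these 5). The Chronic call was lost without Chronic replicate 41, 42 or 45, D3 replicate 14 or any of the 3 Control arrays (adjusted p = 0.0504 to 0.122 over these 7), and the D7 value passed without Chronic replicate 41 (adjusted p = 0.0302).

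Gria3, which encodes a further AMPA receptor subunit, did not pass the test at any time. D3 arrays read from 20.1 to 30.0 with a median of 23.0, D7 arrays from 14.7 to 30.6 with a median of 21.7 and Chronic arrays from 15.9 to 33.2 with a median of 29.2, against 30.3, 28.1 and 28.9 in Control. The groups overlapped at each time. The log2 fold changes were -0.30, -0.42 and -0.25, each ± 0.23 (adjusted p = 0.385, 0.218 and 0.52), with 95% intervals of -0.79 to 0.18, -0.90 to 0.06 and -0.73 to 0.23.

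Among the kainate receptor subunits, Grik5 and Grik1 were lower, from the high-affinity set and from the set that forms channels by itself. Grik5 read 4.65, 4.76, 5.66, 4.96 and 4.88 at D3 (replicates 11 to 15) and 5.09, 5.71, 3.71, 6.11 and 5.19 at D7 (replicates 31 to 35). The 4 Chronic arrays used (replicates 41, 42, 44 and 45) read 5.18, 5.49, 6.51 and 6.73, and the 3 Control arrays 7.85, 8.09 and 7.71. No pilocarpine array overlapped with Control, and D7 replicate 33 was again the lowest. Grik5 fell by 0.66 ± 0.14 on the log2 scale at D3 (adjusted p = 0.00212), to 63.1% of Control, and by 0.63 ± 0.14 at D7 (adjusted p = 0.00496). The Chronic value of -0.41 ± 0.14 did not pass the test (adjusted p = 0.0594). It passed when the contaminated spot of Chronic replicate 43 was kept (-0.45, adjusted p = 0.0313), and also without D7 replicate 33, D7 replicate 34 or Chronic replicate 45 (adjusted p = 0.0142, 0.0495 and 0.0458).

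Grik1, whose subunit is prominent in hippocampal interneurons, read 1.35, 2.28, 1.49, 1.53 and 1.72 at D3 (replicates 11 to 15) and 1.59, 1.60, 1.48, 1.77 and 1.64 at D7 (replicates 31 to 35). In Chronic (replicates 41 to 45) it read 1.39, 1.23, 1.74, 1.33 and 1.39, against 2.08, 2.73 and 2.46 in Control. Only D3 replicate 12 reached the range of Control. Grik1 fell by 0.55 ± 0.15 on the log2 scale at D3 (adjusted p = 0.0142), by 0.58 ± 0.15 at D7 (adjusted p = 0.0144) and by 0.78 ± 0.15 in Chronic (adjusted p = 0.00338). The Chronic value was 58.3% of Control. Without Control replicate 36 the D3 and D7 calls were lost (adjusted p = 0.0872 and 0.0856). A second Grik1 probe was low signal on 12 of the 18 arrays and read from 0.157 to 0.445, and its log2 fold changes of -0.06, 0.23 and 0.38 did not pass the test (adjusted p = 0.928, 0.707 and 0.526).

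Grik2, whose subunit belongs to the mossy fibre receptors, read 0.813, 0.701, 0.833, 0.812 and 0.738 at D3 (replicates 11 to 15), against 1.19, 0.985 and 1.08 in Control, without overlap. It ranged from 0.548 to 1.04 at D7 and from 0.724 to 1.08 in Chronic, and overlapped with Control at both times. The log2 fold changes of -0.47, -0.49 and -0.37, each ± 0.18, did not pass the test (adjusted p = 0.0668, 0.0663 and 0.179). The D3 value passed without D7 replicate 33 or 34 (adjusted p = 0.0348 and 0.0476), and the D7 value without D7 replicate 32 or 34 (adjusted p = 0.049 and 0.0216).

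Grik4, which encodes the other high-affinity subunit, did not pass the test at any time. Its brightest probe ranged from 7.97 to 10.9 on D3 arrays, from 8.93 to 12.8 on D7 arrays and from 10.03 to 13.04 on Chronic arrays, against 11.6, 13.4 and 10.2 in Control. The groups overlapped at each time. The log2 fold changes were -0.27, -0.15 and 0.00, each ± 0.14 (adjusted p = 0.178, 0.499 and 0.996), and the D7 value was 0.04 after quantile normalization. The 95% interval was -0.55 to 0.02 at D3. At D7 it was -0.43 to 0.14, and for Chronic -0.28 to 0.29. The second Grik4 probe had log2 fold changes of -0.40, -0.34 and -0.16 (adjusted p = 0.0952, 0.175 and 0.593). At D3 this second probe ranged from 2.29 to 3.25, against 3.42 to 4.37 in Control, without overlap, and the 95% interval was -0.75 to -0.05.

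**Figure D3:**
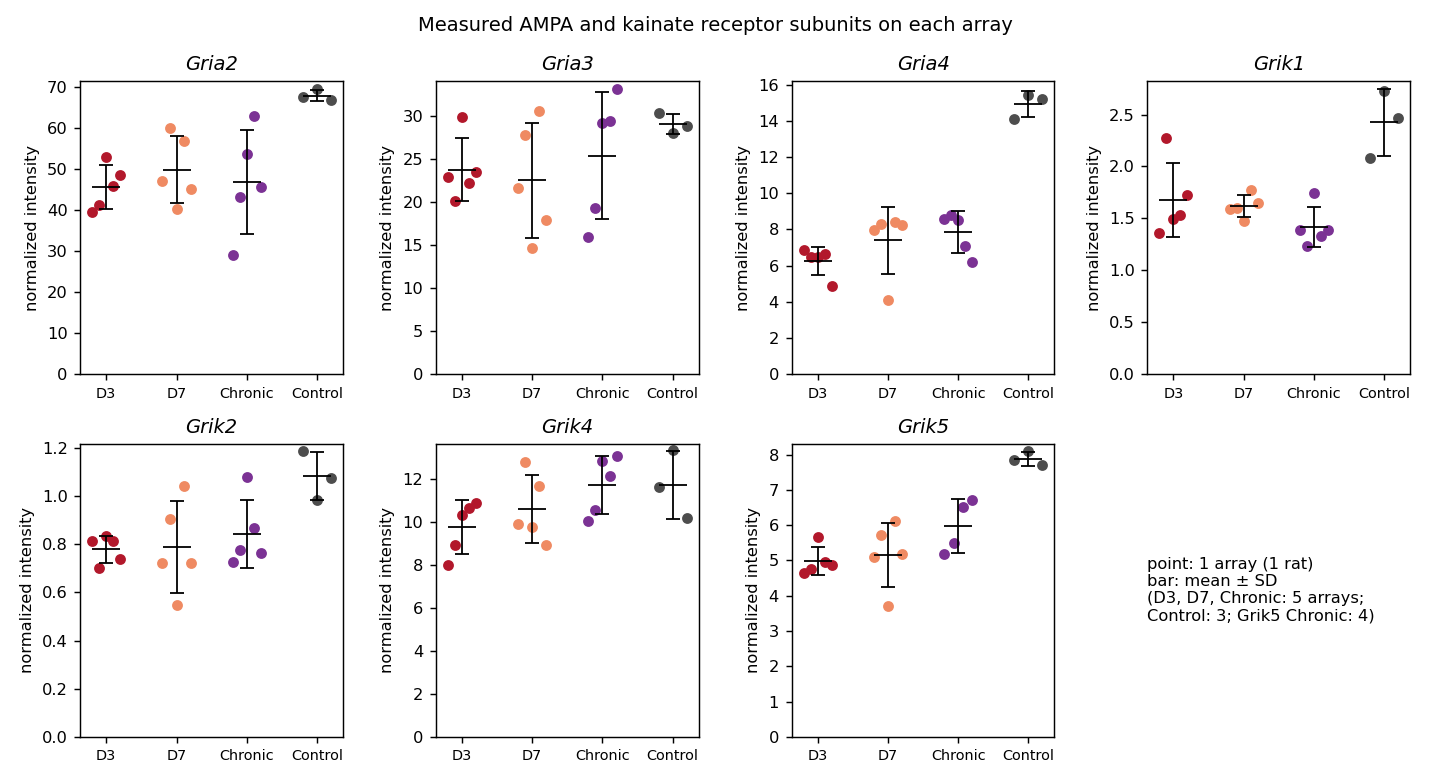
Normalized intensity (y axis, linear scale from 0, brightest probe) of the 7 measured subunits on each array of the D3, D7, Chronic and Control groups (x axis), with points for arrays and bars for mean ± SD. All pilocarpine arrays of Gria2, Gria4 and Grik5 lie below the 3 Control arrays, and Gria3 and Grik4 overlap with Control in each group.

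Differences between the 3 times after SE were tested in the same model. None of the 9 subunits passed the test at D7 against D3 (1.44% of all genes passed in either direction), in Chronic against D3 (3.86%) or in Chronic against D7 (0.219%). At an unadjusted p under 0.05, 0, 1 and 0 subunits passed in these 3 comparisons, against 14%, 18.8% and 11.1% of all genes. The 1 was Grik4 in Chronic against D3, with 10.03 to 13.04 in Chronic and 7.97 to 10.9 at D3, a log2 difference of 0.27 ± 0.12 (95% interval 0.02 to 0.52, adjusted p = 0.253). For Gria4 the log2 difference of Chronic from D3 was 0.32 ± 0.17 (95% interval -0.02 to 0.67, adjusted p = 0.342). For Grik1 it was -0.23 ± 0.13 (95% interval -0.51 to 0.04, adjusted p = 0.4).

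The balance between subunits was followed by the log2 difference of 2 subunits on the same array, with Gria2 as the partner within the AMPA family and Grik2 within the kainate family. 21 such differences were tested against Control by exact two-sided permutation over arrays, of which 15 did not involve Gria1 or Grik3, and none passed after Benjamini-Hochberg adjustment. The smallest adjusted p was 0.188. The smallest p that 5 against 3 arrays can give is 0.0179, so that at least 8 of the 21 would have had to reach it for any to pass, and the lack of a call does not show an unchanged balance. Gria4 minus Gria2 was lower by 0.68 at D3 (-2.87 ± 0.31 at D3 and -2.19 ± 0.06 in Control, SD, n = 5 and 3, exact p = 0.0357) and by 0.60 at D7 (-2.78 ± 0.33 at D7, exact p = 0.0357), with no overlap at either time. Gria3 minus Gria2 was higher by 0.28 at D3 (-0.95 ± 0.13 at D3 and -1.22 ± 0.08 in Control, SD, n = 5 and 3, exact p = 0.0179), also without overlap. Grik4 minus Grik2 was higher by 0.37 in Chronic (3.804 ± 0.19 in Chronic and 3.43 ± 0.29 in Control, SD, n = 5 and 3, exact p = 0.0357), where 1 or more arrays overlapped. Adjusted over the 21 tests, each of these 4 differences had a p of 0.188. The change in these differences is relative within a family and gives no level of either subunit.

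Some arrays lay on one side of their group mean for every measured subunit. D7 replicate 33 lay below its group mean for all 7 measured subunits, by 0.41 on average on the log2 scale, and Chronic replicate 41 for 6 of 7, by 0.25 on average. D7 replicate 34 lay above its group mean for all 7 and Chronic replicate 43 for all 6 measured there, by 0.27 and 0.24 on average. Over the 18 arrays, after subtraction of group means, Gria3 correlated with Grik5 (Pearson r = 0.90 over 17 arrays), with Gria2 (r = 0.83) and with Grik2 (r = 0.75). Grik1 correlated with none of the other 6 above r = 0.23, and Gria4 had r = 0.10 with Gria2 and r = -0.08 with Grik4. These correlations are descriptions, since all values of an array share its RNA and its scale factor.

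**Figure D4:**
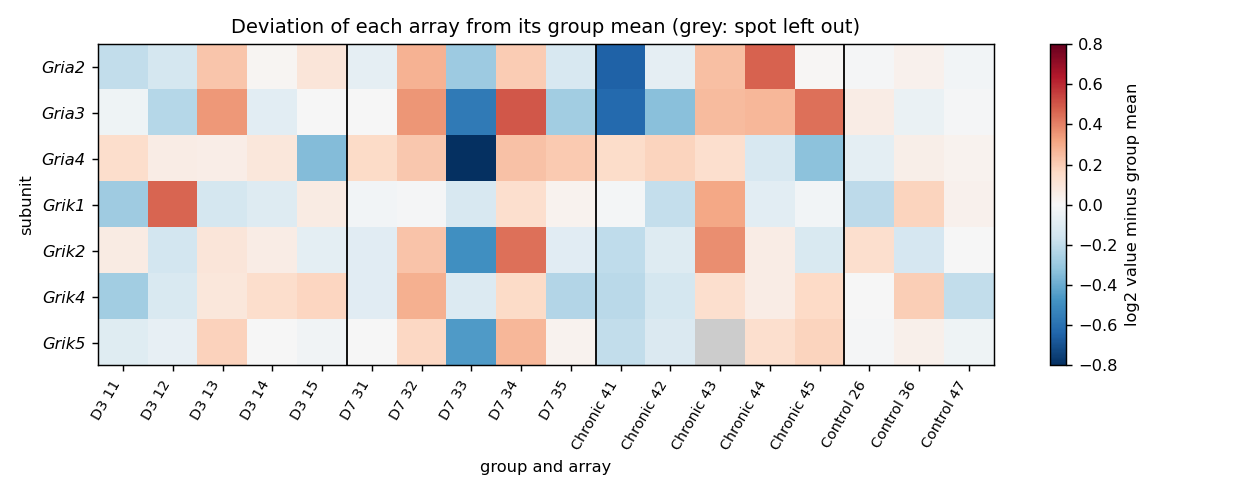
Log2 value minus the group mean (colour) for the 7 measured subunits (rows) on each array (columns, labelled by group and replicate), with grey for the Grik5 spot left out. D7 replicate 33 is below its group mean in every row, and Gria2 and Gria3 of Chronic replicate 41 are the lowest of their group.

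Genes that act with these receptors were followed from a list of 47, of which 37 were on the array with a named probe. They comprise auxiliary subunits, scaffold and trafficking proteins, RNA-editing enzymes and kinases of the receptors, and related receptor subunits. 18 of the 37 (48.6%) were lower at D3, against 16.5% of all genes, 8 (21.6%) at D7, against 15.5%, and 8 (21.6%) in Chronic, against 12.7%. The share at D7 was near that of all genes, and no partner gene was higher at an adjusted p under 0.05. Their median log2 fold change was -0.41, -0.33 and -0.30, against -0.10, -0.12 and -0.12 for all genes. With probes flagged good on at least 9 arrays, 19, 9 and 10 of 34 partner genes (55.9%, 26.5% and 29.4%) were lower. The share of all genes kept in this way was 21.7%, 21.3% and 18.3%, and 1 partner gene was then higher in Chronic. After quantile normalization 9, 3 and 1 (24.3%, 8.11% and 2.70%) were lower at D3, D7 and Chronic, against 8.60%, 4.92% and 4.12% of all genes, so the Chronic share lay below that of all genes. After scaling at the 75th percentile 15, 6 and 2 (40.5%, 16.2% and 5.41%) were lower, against 13.8%, 7.79% and 6.63% of all genes. The Chronic share again lay below that of all genes. Against the single time-matched Control array the median log2 fold change of the partner genes was -0.39, -0.44 and -0.26. That of all genes was -0.11, -0.16 and -0.10. Without Control replicate 36 the counts were 11, 5 and 0 at D3, D7 and Chronic, against 9.72%, 6.21% and 4.42% of all genes. Without Control replicate 26 they were 11 at D3 and 2 in Chronic, against 10.1% and 5.28% of all genes. The Chronic count was also 3 without Control replicate 47 (8.39% of all genes), 4 without Chronic replicate 41 (8.43%) and 5 without Chronic replicate 42 (9.97%).

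Scaffold and trafficking genes were lower in 8 of 17 cases at D3, 4 at D7 and 3 in Chronic. The share of all genes was 16.5%, 15.5% and 12.7%, and the Chronic count was near it. Grip2, whose protein anchors AMPA receptors at the synapse, read 0.769, 0.817, 0.732, 0.625 and 0.618 at D3 (replicates 11 to 15), against 1.49, 1.51 and 1.74 in Control. It fell by 1.15 ± 0.18 on the log2 scale at D3 (adjusted p = 0.000226), by 0.76 at D7 (adjusted p = 0.00819) and by 0.66 in Chronic (adjusted p = 0.0197). Dlg3, encoding the scaffold SAP102, read 2.42, 2.74, 2.97 and 3.01 on the 4 D3 arrays with a value, against 6.31, 5.79 and 5.12 in Control. Dlg3 fell by 1.04 ± 0.21 at D3 (adjusted p = 0.00188), and its values of -0.23 at D7 and -0.27 in Chronic did not pass. It was the only gene of the 37 that passed the test between times, with 4 arrays at D3. Dlg3 was higher by 0.81 at D7 than at D3 (adjusted p = 0.0407) and by 0.77 in Chronic than at D3 (adjusted p = 0.0275). Camk2a, described below, was higher by 0.93 in Chronic than at D3 and did not pass (adjusted p = 0.0501). Nsf, an ATPase that binds the Gria2 subunit, fell by 0.70 at D3 and 0.63 at D7 (adjusted p = 0.00234 and 0.0076). Dlg1, encoding the scaffold SAP97, fell by 0.43, 0.42 and 0.29 at the 3 times (adjusted p = 0.00297, 0.0063 and 0.0443). Dlg4 (the scaffold PSD-95) fell by 0.64, Nptxr (the neuronal pentraxin receptor) by 0.64, Epb41l1 (a cytoskeletal linker of AMPA receptors) by 0.62 and Nlgn1 (a synaptic adhesion protein) by 0.49 at D3. Their adjusted p values at D3 were 0.0421, 0.0211, 0.0143 and 0.0151 in turn. Cacng6, which encodes a calcium channel gamma subunit, fell by 0.45 at D7 (adjusted p = 0.046).

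Nptx2, encoding a pentraxin that clusters AMPA receptors, spread widely in Chronic. It read 14.03, 5.44, 3.81, 27.7 and 38.7 on the Chronic arrays (replicates 41 to 45), against 3.77, 2.91 and 3.83 in Control. Chronic replicate 43 lay within the range of Control. The log2 fold change of 1.85 ± 0.65 did not pass the test (adjusted p = 0.0604).

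Of the 9 auxiliary AMPA receptor genes on the array, 4 were lower at D3, 1 at D7 and 2 in Chronic. The share of all genes was 16.5%, 15.5% and 12.7%, and the D7 count lay below it. Shisa7, encoding an auxiliary protein of hippocampal AMPA receptors, read 6.92, 5.73, 9.18, 6.96 and 5.88 at D3 (replicates 11 to 15), against 13.5, 13.3 and 11.8 in Control, with no overlap. It fell by 0.91 ± 0.19 at D3 (adjusted p = 0.0023), by 0.90 at D7 (adjusted p = 0.00433) and by 0.62 in Chronic (adjusted p = 0.0356). Cpt1c fell by 0.60 at D3 and 0.46 in Chronic (adjusted p = 0.00656 and 0.0392). Cnih2 (a cornichon protein) and Cacng5 (a transmembrane AMPA receptor regulatory protein) fell by 0.50 and 0.45 at D3 (adjusted p = 0.0465 and 0.034). Neto1, the auxiliary subunit of kainate receptors that was on the array, had log2 fold changes of -0.34, -0.41 and -0.20 and did not pass the test.

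Among 8 genes for editing enzymes and kinases, 5 were lower at D3 and 3 each at D7 and in Chronic. The share of all genes was 16.5%, 15.5% and 12.7%. Camk2a, the kinase that phosphorylates AMPA receptors in long-term potentiation, read 21.1, 9.21, 22.5, 19.3 and 24.2 at D3 (replicates 11 to 15), against 42.6, 42.6 and 35.8 in Control, without overlap. It fell by 1.14 ± 0.29 at D3 (adjusted p = 0.008), and its values of -0.47 at D7 and -0.21 in Chronic did not pass. Adarb1, the enzyme that edits the Gria2 transcript at the site deciding calcium entry, had log2 fold changes of -0.03, 0.04 and 0.31 (adjusted p = 0.93, 0.891 and 0.199). Adar, the other catalytically active adenosine deaminase for RNA, fell by 0.52, 0.41 and 0.43 at the 3 times (adjusted p = 0.002, 0.0141 and 0.0133). Camk2b fell by 0.57 at D3 (adjusted p = 0.0375). Prkaca, a catalytic subunit of protein kinase A, fell by 0.38, 0.47 and 0.37 at the 3 times (adjusted p = 0.00949, 0.00406 and 0.0176).

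**Figure D5:**
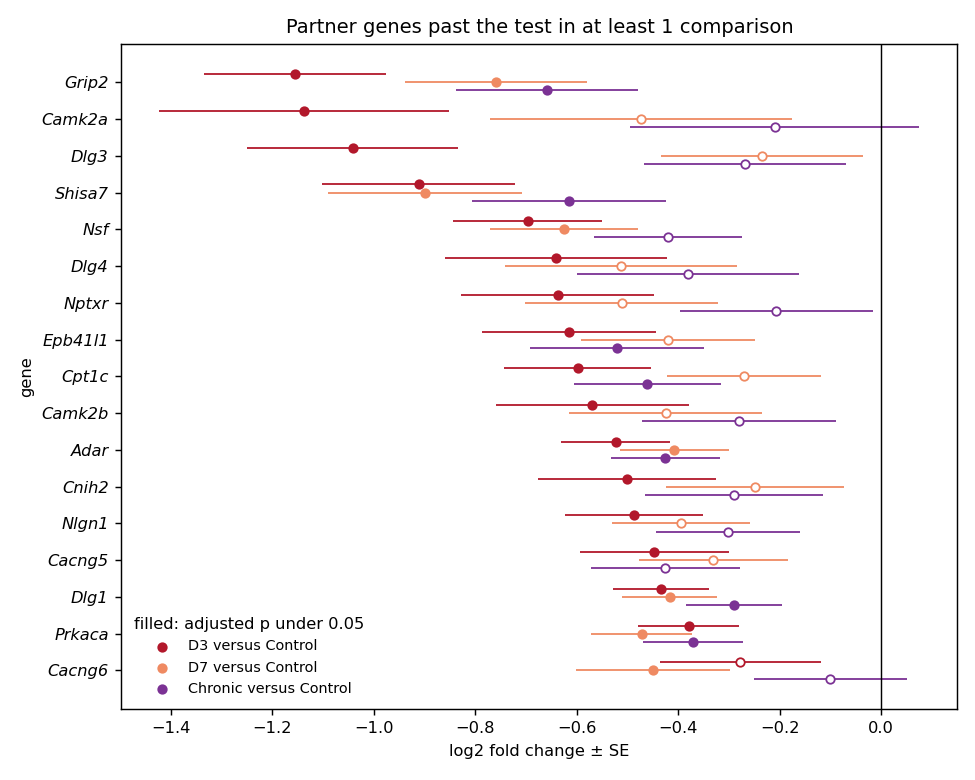
Log2 fold change ± SE (x axis) against Control at D3, D7 and Chronic for 17 partner genes (y axis) that passed the test in at least 1 comparison, with filled points for an adjusted p under 0.05. All filled points lie left of 0, with Grip2 lowest at D3 (-1.15).

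Summed markers of excitatory neurons and of pyramidal cells were below Control on every pilocarpine array, whereas those of dentate granule cells overlapped with Control. A sum weighs the brightest markers most, so counts of single markers are given beside it. The summed intensity of 5 excitatory neuron markers ranged from 58.5 to 79.9 on D3 arrays, from 53.3 to 94.0 on D7 arrays and from 59.97 to 101 on Chronic arrays, against 114 to 125 in Control. 5, 4 and 3 of 7 such markers passed the test as lower at D3, D7 and Chronic, against 16.5%, 15.5% and 12.7% of all genes. Their median log2 fold changes were -0.84, -0.65 and -0.57. The Chronic median is the value of Snap25, whose spot was good on 1 of the 18 arrays. Neurod2 had log2 fold changes of 0.11, -0.06 and 0.32 and did not pass the test. The 4 summed markers of CA1 and CA3 pyramidal cells ranged from 20.2 to 33.8 on D3 arrays, from 14.6 to 45.3 on D7 arrays and from 22.9 to 41.3 on Chronic arrays, against 57.1 to 61.6 in Control. Of 5 such markers 3, 2 and 2 passed the test as lower, against 16.5%, 15.5% and 12.7% of all genes. The median log2 fold changes of these 5 were -0.71, -0.55 and -0.40. Of 10 interneuron markers 5, 4 and 4 were lower, against the same shares of all genes. Higher were 1, 0 and 0, against 11.8%, 8.04% and 6.28% of all genes. The interneuron sums overlapped with Control at D3 and in Chronic but not at D7 (D3 arrays 89.1 to 123, D7 arrays 69.1 to 106, Chronic arrays 78.1 to 143, Control arrays 111 to 115). These sums include Npy, the 1 marker higher at D3, with log2 fold changes of 1.40, 0.38 and 1.30 (adjusted p = 0.0421, 0.635 and 0.0748). Gad1, Slc32a1, Pvalb and Reln were the 4 markers lower at D7 and in Chronic, and at D3 they were lower together with Calb2. Overlap of the sums therefore does not show that interneuron markers were unchanged. The 3 summed markers of dentate granule cells ranged from 18.4 to 23.9 on D3 arrays, from 9.41 to 26.5 on D7 arrays and from 13.5 to 26.9 on Chronic arrays, against 22.9 to 30.1 in Control. 2, 0 and 0 of 4 such markers passed the test as lower, against 16.5%, 15.5% and 12.7% of all genes. The median log2 fold changes of these 4 were -0.59, -0.46 and -0.25. Prox1, a transcription factor of granule cells, had log2 fold changes of -0.76, -0.40 and 0.51 (adjusted p = 0.00413, 0.118 and 0.0561). The 9 microglia markers summed to between 186 and 551 over the pilocarpine arrays, against 89.6 to 102 in Control, and 9, 9 and 8 of them were higher, against 11.8%, 8.04% and 6.28% of all genes. The part of these shifts in the subunit values was not tested.

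The genes whose log2 values followed Gria4 most closely over the 18 arrays, out of 8478 genes, were Cend1 (Pearson r = 0.97), Ncald (0.96), Tcea2 (0.95), Synj1 (0.95) and Dact3 (0.95). Cend1 is a neuronal differentiation protein, Ncald a neuronal calcium sensor and Synj1 a phosphatase of synaptic vesicle recycling. For Grik5, over the 17 arrays with a value, they were Slc12a5 (r = 0.97), Tsga13 (0.97), Shisa7 (0.96), Camsap2 (0.96) and Gabbr1 (0.95). Slc12a5 is the neuronal potassium-chloride cotransporter and Gabbr1 a subunit of the GABA-B receptor. Their log2 fold changes at D3 ran from -0.60 to -0.97 for those nearest Gria4 and from -0.51 to -0.91 for those nearest Grik5. The r values are descriptions over all 4 groups, whose arrays share scale factors and group differences.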

How the data were processed

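Per the labels and the study's methods, total RNA of rat hippocampus was hybridised to 1-colour CodeLink arrays and scanned with GenePix Pro. The authors corrected the intensity of each spot for local background and normalized it with the CodeLink Expression Analysis software. The deposited values are normalized intensities, 1 constant per array (97.3 to 189.8) dividing the corrected intensity, with a quality flag per spot. Of 35129 spots, 33849 were gene probes and 33800 were tested. Symbols came from the platform annotation for 16905 probes and from the RefSeq accession for 205, and a further 165 probes naming several genes were not used as a named gene.

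Spots flagged good or low were kept, as in the study's methods, floored at percentile 1 of each array's positive values and taken to log2. Probes needed 3 values in each pilocarpine group and 2 in Control. limma 3.58.1 (R 4.3.3) fitted the 4 groups with lmFit and eBayes with an intensity trend, and p-values were adjusted by Benjamini-Hochberg over all probes. Each gene was represented by its brightest probe (12331 genes). Called means an adjusted p under 0.05. Replicates are separate rats. The study's pair-matched controls were here 1 array per time, and no scan date or slide was used. The fit was run on simulated arrays with independent noise for each probe and array. That check does not cover deviations that the probes of an array share. The number of arrays limits the precision.

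All 9 members are named with all their probes, with partner genes that passed the test (up to 20, of which 2 enter the counts but are not reported here), markers as counts, and the 5 genes nearest by Pearson r to Gria4 and Grik5. Members, lists and tests were chosen with earlier results of these data known. Alternatives were other scalings, floors, flags, controls, probes, variance settings, the study's t-test and leaving out each array.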

Additional observations from a re-analysis of the deposited data

Results flagged for a closer look

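Within each of the 21 groups formed by a measured subunit and a pilocarpine group, the array farthest from the others was compared with the spread of that group by Dixon's ratio, the gap to the nearest array over the whole range on the log2 scale. 2 groups exceeded the 95% limit (0.71 for 5 arrays), where chance alone gives about 1 in 20. Both concerned Gria4. D3 replicate 15 was lowest with 4.90, against 6.46 to 6.87 on the other 4 D3 arrays and 14.1 to 15.4 in Control (ratio 0.817). D7 replicate 33 was lowest with 4.09, against 7.94 to 8.40 on the other 4 D7 arrays (ratio 0.923). Without D3 replicate 15 the D3 value was -1.18 (adjusted p = 0.000686), and without D7 replicate 33 the D7 value was -0.86 (adjusted p = 0.00037). Groups of 3 arrays were not examined in this way, and no subunit passed a test of difference between times.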

How the results depend on the processing

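Of 645 recomputed log2 fold changes of the 7 measured subunits, 583 kept their direction and their side of the threshold, 37 lost significance, 16 gained it and 9 changed sign. The changes of sign concerned values near 0 or a dim probe. Grik4 in Chronic (0.00) became -0.16 with its second probe and lay between -0.10 and 0.10 when each array was left out in turn (-0.03, -0.01 and -0.04 without Chronic replicates 43, 44 and 45, -0.00034 and -0.096 without Control replicates 26 and 47). Grik4 at D7 was 0.041 after quantile normalization, and the dim Grik1 probe gave 0.23 at D7 and 0.38 in Chronic. Among the differences of 2 subunits within an array, quantile normalization turned Grik5 minus Grik2 at D7 to 0.039. When each Control array was left out in turn, Gria3 minus Gria2 at D7 ran from -0.0013 to 0.075, Grik1 minus Grik2 from -0.25 to 0.081 at D3 and from -0.26 to 0.066 at D7, and Grik5 minus Grik2 in Chronic from -0.014 to 0.14.

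The counts of subunits lower than Control (4, 3 and 3 at D3, D7 and Chronic) were 1, 0 and 0 with the time-matched Control array alone and 1, 1 and 0 with a 2-fold limit. The methods' t-test gave 1, 1 and 0 at their threshold of p and fold, and 4, 0 and 2 after Benjamini-Hochberg adjustment. At an unadjusted p under 0.05 the limma counts were 5, 5 and 4. The share of all genes under the t-test rules, or against Control at unadjusted p, is not given here. The t-test and unadjusted counts therefore show nothing particular to the subunits. Leaving out 1 array gave counts of 2 to 5, 2 to 4 and 2 to 4, and 0 in each comparison between times. Over these fits 9.72% to 18.6%, 6.21% to 17.7% and 4.42% to 16.1% of all genes were lower at D3, D7 and Chronic. For Chronic against D3, 1 subunit passed at an unadjusted p under 0.05 (18.8% of all genes). By the methods' t-test at P alone 3 passed. The 2 unadjusted counts were added after the data were seen. Among all called genes the share that was higher was 41.7%, 34.2% and 33.1% at D3, D7 and Chronic, and 61.5%, 62.8% and 61.0% after quantile normalization. No paired analysis was possible because the replicate numbers are not shared between groups. The cause of these changes was not tested.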
